A study of Mus musculus with 12 samples.

Results

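Endothelial cells line the blood vessels and sinusoids of the liver, and 10 genes of their surface proteins were followed here: the receptor genes Tie1, Tek, Kdr, Flt1 and Eng, the junction genes Pecam1, Cdh5 and Gja4, and the leukocyte adhesion genes Icam1 and Vcam1. All probe sets that the platform's annotation table gives 1 of these symbols were taken, which found 14 of the 12488 probe sets on the array, control probe sets included. Tie1 and Flt1 have 2 probe sets, Vcam1 has 3 and the other genes have 1. The 10 genes were chosen by name with measured differences between these groups already known, so the same intensities count as used in the choice. Every level and difference of these 10 genes is therefore given as a description, and an adjusted p printed beside it says only how limma's model over all probe sets placed that probe set.

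Liver RNA was hybridised to 12 Affymetrix mouse arrays in 6 groups of 2, with the livers taken 4 h after a substance was injected into the peritoneum. Control mice were albumin-cre(-) Socs3(w/fl), so they carried a floxed Socs3 allele without the recombinase, and were given interleukin-6 (IL-6) or phosphate-buffered saline (PBS). Socs3-deleted mice were albumin-cre(+) Socs3(-/fl), with a null and a floxed allele and a recombinase under the albumin promoter, which is active in hepatocytes, and received PBS or IL-6. Mice lacking interferon-gamma (IFN-γ), called Ifng-null here, received PBS or IFN-γ. The albumin promoter limits the deletion of the floxed allele to hepatocytes, while the null allele is present in all cells of the Socs3-deleted mice. IFN-γ was given to Ifng-null mice alone, so no array shows the IFN-γ response of the control mice. The sources used here give no dose, age or sex.

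Tie1 and Tek encode the receptor tyrosine kinases of the angiopoietin system, in which Tek binds the angiopoietins and Tie1 acts as its partner receptor. Kdr and Flt1 encode receptors of the vascular endothelial growth factors (VEGF), and endoglin, the product of Eng, is a co-receptor for ligands of the TGF-beta and BMP family. Pecam1 and VE-cadherin, the product of Cdh5, hold neighbouring endothelial cells together, and Gja4 encodes connexin 37, a gap junction protein. Icam1 and Vcam1 are ligands of leukocyte integrins and are known as genes that inflammatory cytokines raise in endothelium, although hepatocytes, macrophages and stellate cells can also carry them.

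Each value is a signal intensity on a linear scale. A floor of 33.0, the 25th percentile of all intensities, replaced lower values before log2 was taken, and probe sets with 2 or more arrays above it entered the fit. Of the 14 probe sets 12 entered, among 9641 in all. The array medians lay between 80.6 and 85.7, and log2 values of replicate arrays had a Pearson's r of 0.977 to 0.987 across probe sets. Nothing in the labels states that replicates came from different mice, so the spread behind each p-value is that of these arrays and may be technical. Socs3 read 74.4 to 106 on the 4 arrays of Socs3-deleted mice and 117 to 167 on the 4 control arrays on its brighter probe set. In liver RNA, fewer cells of a type and less RNA per cell cannot be told apart. Of 14 other endothelial markers on the array 12 entered the fit, and their summed intensity lay between 1077 and 1315 over the 12 arrays. None of these 12 passed limma's threshold in any of the 8 comparisons planned, beside 0% to 1.17% of all probe sets. A count of 0 is near that share. Markers of the exocrine pancreas summed to 7359 on replicate 2 of the control PBS group and 16015 on replicate 2 of the Socs3-deleted PBS group, against 1161 to 1454 elsewhere. For the genes named below, a call that ended without these 2 arrays is given with its adjusted p there. Leaving both out keeps 1 array in each of these PBS groups, and calls over all probe sets also became fewer wherever there were any. Whether such a call ended because of the pancreatic markers or of the smaller groups was not tested.

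Tie1 was highest in Socs3-deleted mice given IL-6. On the probe set 161184_f_at its intensity was 90.3 and 126 on the 2 arrays of Socs3-deleted mice given IL-6. The Socs3-deleted arrays after PBS read 45.9 and 42.8, the control arrays 30.7 and 33.4 after PBS and 32.9 and 34.9 after IL-6, and the Ifng-null arrays 36.1 and 36.1 after PBS and 35.0 and 32.0 after IFN-γ. Both arrays of the Socs3-deleted IL-6 group stood above all 10 others, and the Socs3-deleted PBS arrays came next, above the remaining 8. The level in Socs3-deleted mice was 2.41-fold higher after IL-6 than after PBS, a log2 difference of 1.27 ± 0.14 (SE, limma adjusted p = 0.00414).

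On the other Tie1 probe set, 99936_at, the same 2 arrays were again the highest, at 128 and 186. The remaining 10 arrays lay between 83.4 and 101, with the Ifng-null arrays after IFN-γ (88.3 and 83.4) below the others. The log2 difference in Socs3-deleted mice was 0.67 ± 0.16 (SE, limma adjusted p = 0.0955), which is 1.59-fold and 0.60 less than on 161184_f_at. The probe sets also differed at the low end: after PBS, Socs3-deleted mice read higher than control mice by 0.42 ± 0.14 on the log2 scale on 161184_f_at (SE, limma adjusted p = 0.951), with groups that did not overlap, while on 99936_at this was 0.06 and the groups overlapped. The suffix f is the array maker's mark for a probe set that can also match related sequences. Of the 2 IL-6 arrays of the Socs3-deleted mice, replicate 2 was the higher on both probe sets. Without replicate 1 the log2 difference was 1.51 on 161184_f_at and 0.94 on 99936_at (limma adjusted p = 0.000999 and 0.01), and without replicate 2 it was 1.03 and 0.40 (limma adjusted p = 0.0135 and 0.305). Without the 2 arrays high in pancreatic markers it was 1.22 on 161184_f_at (limma adjusted p = 0.0977).

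**Figure D1:**
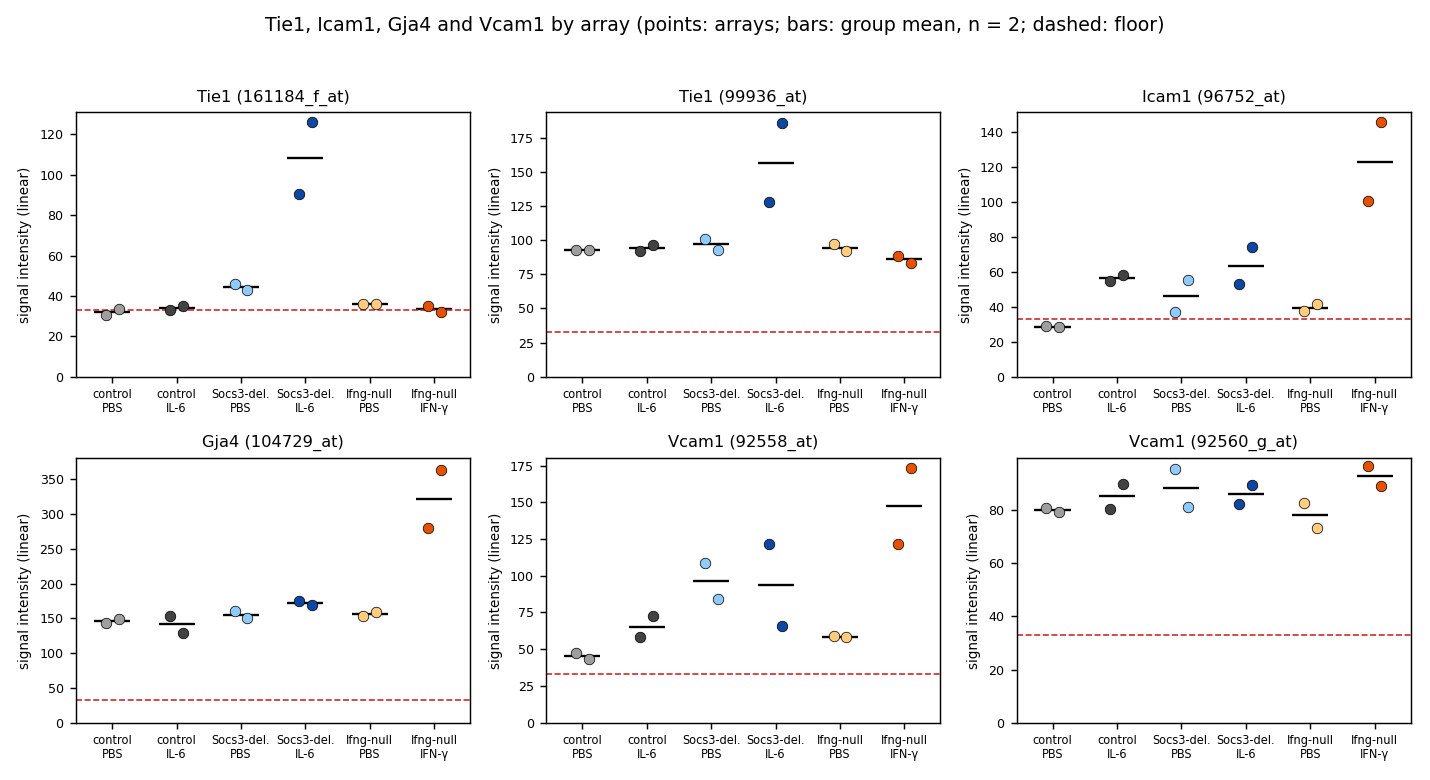
Signal intensity (linear scale) of both Tie1 probe sets, Icam1, Gja4 and the 2 brighter Vcam1 probe sets on each array, by genotype and injection; bars are group means (n = 2) and the dashed line is the floor of 33.0. Both Tie1 panels are highest in Socs3-deleted mice after IL-6 (90.3 and 126, and 128 and 186), whereas Icam1 (100.5 and 145) and Gja4 (280.2 and 364) are highest in Ifng-null mice after IFN-γ.

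Set against control mice given IL-6, Tie1 in Socs3-deleted mice given IL-6 was 3.15-fold higher on 161184_f_at, a log2 difference of 1.65 ± 0.14 (SE, limma adjusted p = 0.000868), and 1.63-fold higher on 99936_at (limma adjusted p = 0.0865). In control mice the IL-6 arrays differed from the PBS arrays by 0.03 and 0.02 on the log2 scale. On 161184_f_at 1 array of each of these control groups lay under the floor and the other just above it. A small control response could not be seen there, and differences from control mice are affected by the floor. The IL-6 response of Socs3-deleted mice minus that of control mice was 1.24 ± 0.20 on 161184_f_at and 0.65 ± 0.22 on 99936_at, and neither was past the threshold (SE, limma adjusted p = 0.13 and 0.999). Without replicate 1 of the Socs3-deleted IL-6 group it was 1.48 on 161184_f_at (limma adjusted p = 0.00961). The IFN-γ response of Tie1 was -0.09 and -0.14 on the 2 probe sets, 1.35 and 0.81 below the IL-6 response of Socs3-deleted mice (limma adjusted p = 0.118 and 0.789).

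Tek, the receptor that Tie1 partners, was not measurable on these arrays. Its probe set read 21.2 to 33.3 over the 12 arrays and was above the floor on 1 array, from the Socs3-deleted PBS group, so no difference was computed. The VEGF receptor gene Kdr was measured on all arrays, between 57.0 and 86.4. Its group mean was lowest in Ifng-null mice after IFN-γ, where the arrays read 64.7 and 57.0 against 81.4 and 72.7 after PBS, without overlap. The log2 difference was -0.34 ± 0.12 (SE, limma adjusted p = 0.552). After IL-6 Kdr differed from PBS by -0.11 in control mice and by -0.18 in Socs3-deleted mice, where the groups of 72.1 and 83.2 after PBS and 72.5 and 64.6 after IL-6 overlapped. The latter was -0.08 when the 2 arrays high in pancreatic markers were left out.

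The 2 probe sets of Flt1 had the lowest ratios of highest to lowest array among the 12 probe sets in the fit. On 98452_at the intensities lay between 87.7 and 111 and on 98453_at between 129 and 157. The lowest array of 98452_at was an Ifng-null array after IFN-γ, and there the log2 difference from PBS was -0.19 ± 0.10 (SE, limma adjusted p = 0.811). On 98453_at it was 0.03, so the probe sets of Flt1 did not share a direction. Eng was the brightest of the 10 genes' probe sets as read, between 690.1 and 1147, both extremes being arrays of Socs3-deleted mice given IL-6. The groups of Eng overlapped after IL-6 in each genotype, with log2 differences of 0.01 in control and 0.03 in Socs3-deleted mice, and after IFN-γ the difference was -0.30 ± 0.21 (SE, limma adjusted p = 0.994).

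Among the junction genes, Pecam1 and Cdh5 differed more between the 2 replicates of the Ifng-null groups than between injections. Pecam1 read 142 and 86.7 on the Ifng-null PBS arrays and 134 and 86.5 on the IFN-γ arrays, so replicate 1 was 1.64-fold and 1.55-fold the brighter. Cdh5 went the other way, at 105 and 181 after PBS and 85.2 and 135 after IFN-γ, with replicate 2 higher by 1.72-fold and 1.59-fold. The IFN-γ response was -0.04 ± 0.25 for Pecam1 and -0.36 ± 0.26 for Cdh5 (SE, limma adjusted p = 1 each). The labels do not state whether equally numbered Ifng-null arrays were handled together. In the other 4 groups Pecam1 lay between 113 and 147 and Cdh5 between 107 and 147. Cdh5 was higher on the 4 Socs3-deleted arrays, at 128 to 147, than on the 4 control arrays, at 107 to 119, with a log2 difference of 0.27 ± 0.26 under either injection (SE, limma adjusted p = 0.951 and 0.989), and of 0.19 after PBS without the 2 arrays high in pancreatic markers. The summed intensity of the other endothelial markers after PBS was 1244 and 1247 with Socs3 deleted against 1150 and 1153 in control mice, and after IL-6 it was 1129 to 1315 against 1154 to 1185. Their part in the Cdh5 values was not tested.

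**Figure D2:**
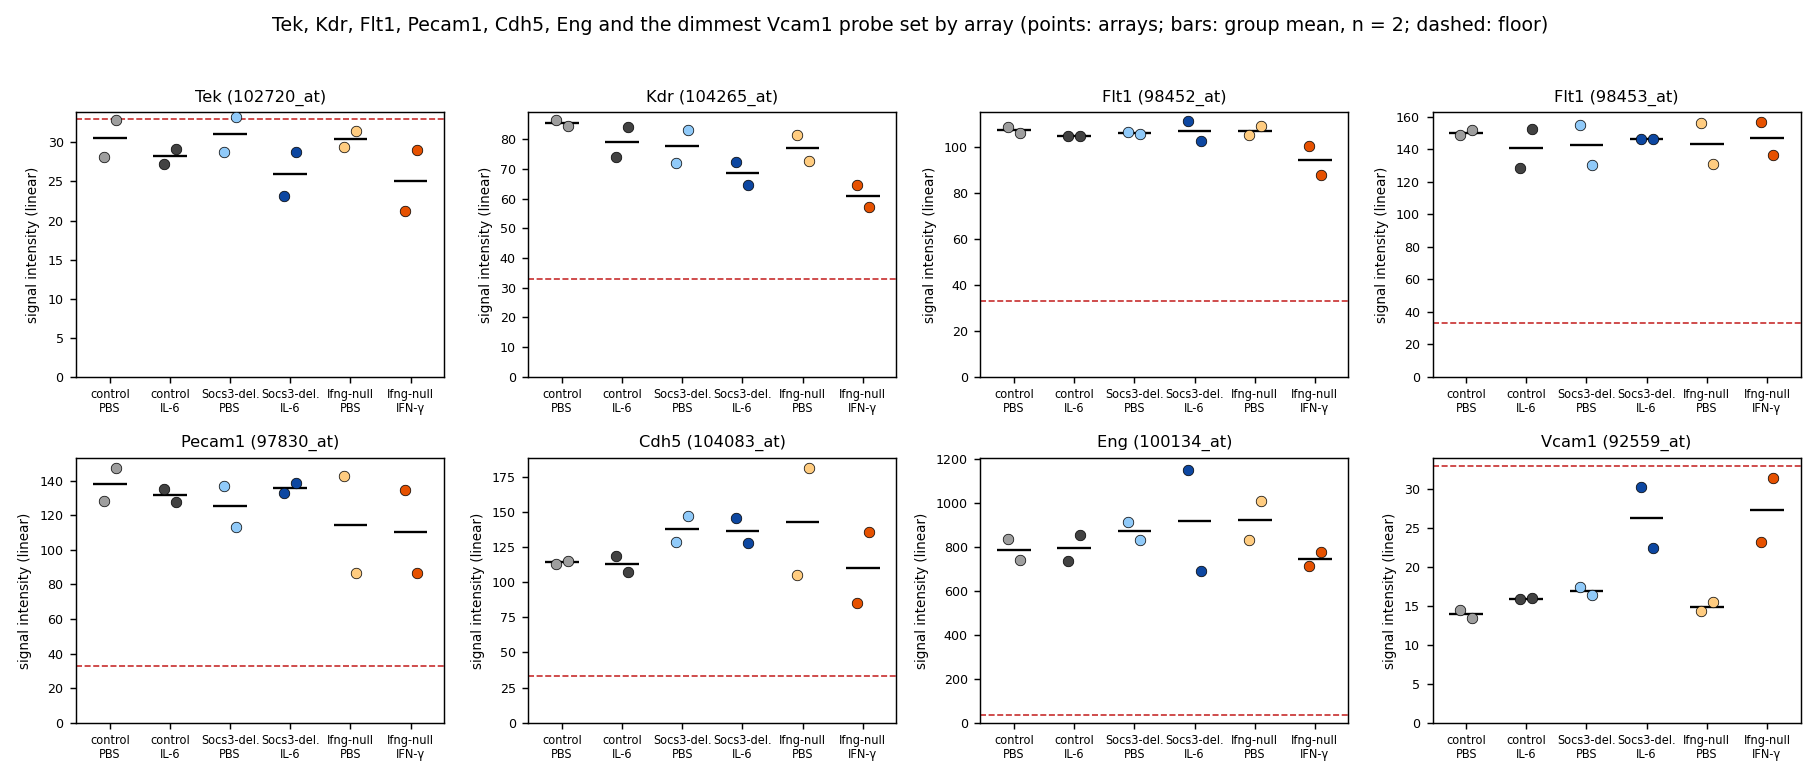
Signal intensity (linear scale) of Tek, Kdr, Flt1, Pecam1, Cdh5, Eng and the dimmest Vcam1 probe set on each array, by genotype and injection; bars are group means (n = 2) and the dashed line is the floor of 33.0. This Vcam1 probe set lies under the floor on all arrays and Tek on all but 1, and Pecam1 and Cdh5 differ most between the replicates of the Ifng-null groups.

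Icam1, Gja4 and all 3 Vcam1 probe sets had their highest group mean in Ifng-null mice given IFN-γ. Icam1 read 100.5 and 145 on the IFN-γ arrays and 37.4 and 41.8 after PBS, 3.06-fold, a log2 difference of 1.61 ± 0.23 (SE, limma adjusted p = 0.0172). Gja4 read 280.2 and 364 after IFN-γ and 154 and 159.7 after PBS, 2.04-fold, a log2 difference of 1.03 ± 0.14 (SE, limma adjusted p = 0.0122). For both genes these 2 arrays stood above the 10 others. Of the 12 probe sets that entered the fit 2 were called after IFN-γ, beside 0.653% of all probe sets, and both were higher, beside 0.612% of all probe sets, a count that was known when the genes were chosen. With either IFN-γ replicate 2 or one of the 2 Ifng-null PBS arrays left out neither was called: the limma adjusted p was 0.144, 0.128 and 0.0983 for Icam1 and 0.0691, 0.0965 and 0.0874 for Gja4, in the order IFN-γ replicate 2, PBS replicate 1 and PBS replicate 2. Without the 2 arrays high in pancreatic markers, which are in other groups, it was 0.0437 for Icam1 and 0.0606 for Gja4.

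The order of the Gja4 group means was Ifng-null with IFN-γ, Socs3-deleted with IL-6, Ifng-null with PBS, Socs3-deleted with PBS, control with PBS and control with IL-6, at 322, 172, 157, 155, 146 and 142. Below the first, Socs3-deleted mice after IL-6 (175 and 169) lay above both Socs3-deleted PBS arrays (161 and 149.9), and the last 4 groups lay between 129 and 161. Among these, the PBS groups of Ifng-null and Socs3-deleted mice overlapped, as did both control groups, while the control PBS arrays (144 and 148.9) lay just below the Socs3-deleted ones. The IL-6 response of Gja4 was -0.05 ± 0.14 in control and 0.15 ± 0.14 in Socs3-deleted mice on the log2 scale. Its IFN-γ response was larger than these by 1.08 ± 0.19 and 0.88 ± 0.19 (SE, limma adjusted p = 0.228 and 0.539). Of the other gap junction genes, Gja1, Gja5, Gjb1 and Gjb2 were on the list of junction genes and were not called in any comparison. At most 1.17% of all probe sets were called in a comparison.

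For Icam1 the order was Ifng-null with IFN-γ (123), Socs3-deleted with IL-6 (63.5), control with IL-6 (56.4), Socs3-deleted with PBS (46.1), Ifng-null with PBS (39.6) and control with PBS (28.8). The first and the last group were separate from their neighbours, and the 4 in between overlapped in turn. Socs3-deleted mice read 37.0 and 55.2 after PBS and 52.9 and 74.0 after IL-6, so these groups overlapped, with a log2 difference of 0.47 ± 0.23 (SE, limma adjusted p = 0.555). The overlap rests on the higher PBS array, 1 of the 2 high in pancreatic markers, and without these 2 the difference was 0.76 (limma adjusted p = 0.507). In control mice the arrays read 29.0 and 28.5 after PBS, under the floor on both, and 54.7 and 58.1 after IL-6. Icam1 was thus at least 1.71-fold higher after IL-6 in control mice, and limma gave adjusted p = 1 and an unadjusted p = 0.00842. The averaged IL-6 response of both genotypes was 0.62 ± 0.16 (SE, limma adjusted p = 0.172). The IFN-γ response exceeded the IL-6 response by 1.14 ± 0.33 in Socs3-deleted and by 0.84 ± 0.33 in control mice (SE, limma adjusted p = 0.879 and 1), the second being affected by the floor.

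The 3 probe sets of Vcam1 disagreed. On 92558_at the Ifng-null arrays read 58.9 and 58.1 after PBS and 122 and 173 after IFN-γ, a log2 difference of 1.31 ± 0.28 (SE, limma adjusted p = 0.105). Leaving out replicate 1 or 2 of the Socs3-deleted IL-6 group, which enter only through the shared spread, gave limma adjusted p = 0.0285 and 0.0291. On 92560_g_at they read 82.7 and 73.4 after PBS and 96.5 and 89.0 after IFN-γ, a difference of 0.25 ± 0.12 (SE, limma adjusted p = 0.75). The groups did not overlap on either probe set, and the differences were 2.48-fold and 1.19-fold. The third, 92559_at, lay under the floor on all 12 arrays and was not tested, although its values of 23.1 and 31.4 after IFN-γ were above those of 14.3 and 15.5 after PBS. The annotation gives 92559_at and 92560_g_at the same source sequence and 92558_at another, and the suffix g is the array maker's mark for a set that shares probes with its neighbour.

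After IL-6 the Vcam1 probe sets differed as well. In Socs3-deleted mice 92558_at read 109 and 84.0 after PBS and 122 and 66.1 after IL-6, with overlapping groups and a log2 difference of -0.09 ± 0.28 (SE). On 92559_at, under the floor, the same arrays read 17.4 and 16.4 after PBS and 30.3 and 22.4 after IL-6. Control arrays read 14.4 and 13.5 after PBS and 15.8 and 16.0 after IL-6 on 92559_at. On 92560_g_at the log2 difference was -0.04 in Socs3-deleted and 0.09 in control mice. In control mice 92558_at read 47.6 and 43.5 after PBS and 58.1 and 72.8 after IL-6, a difference of 0.51 ± 0.28 (SE, limma adjusted p = 1).

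Vcam1 on 92558_at also differed between genotypes after PBS, being 2.10-fold higher in Socs3-deleted than in control mice, a log2 difference of 1.07 ± 0.28 (SE, limma adjusted p = 0.59, unadjusted p = 0.0034). The groups of 109 and 84.0 against 47.6 and 43.5 did not overlap, and without the 2 arrays high in pancreatic markers, which leaves 1 array a group, the difference was 1.19. On 92560_g_at the difference was 0.14 ± 0.12 and on 92559_at both genotypes lay under the floor. Macrophage markers moved the same way on the group means. Over 12 genes on the array the summed intensity was 3136 to 3579 in control and 3887 to 4637 in Socs3-deleted mice after PBS. All 12 had a positive difference, with a median of 0.33 on the log2 scale against -0.02 over all probe sets. The sums of 3136 and 4637 are those of the 2 arrays high in pancreatic markers. On the other PBS array of each genotype they were 3579 and 3887. There Cd68, Csf1r, Clec4f and Lyz2 read lower in Socs3-deleted than in control mice, and the other macrophage markers read higher. After IL-6 the macrophage sums were 3561 to 3593 in control and 4687 to 5894 in Socs3-deleted mice. In Ifng-null mice they were 3318 to 4387 after PBS and 3041 to 4696 after IFN-γ. Stellate cell and fibroblast markers, 9 on the array, summed to 2131 to 2393 in control and 2509 to 2927 in Socs3-deleted mice after PBS, but 5 were positive and 4 negative, with a median of 0.04. The 12 other endothelial markers in the fit had 9 positive and 3 negative differences with a median of 0.08. The part of these cells in the Vcam1 or Tie1 values was not tested.

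**Figure D3:**
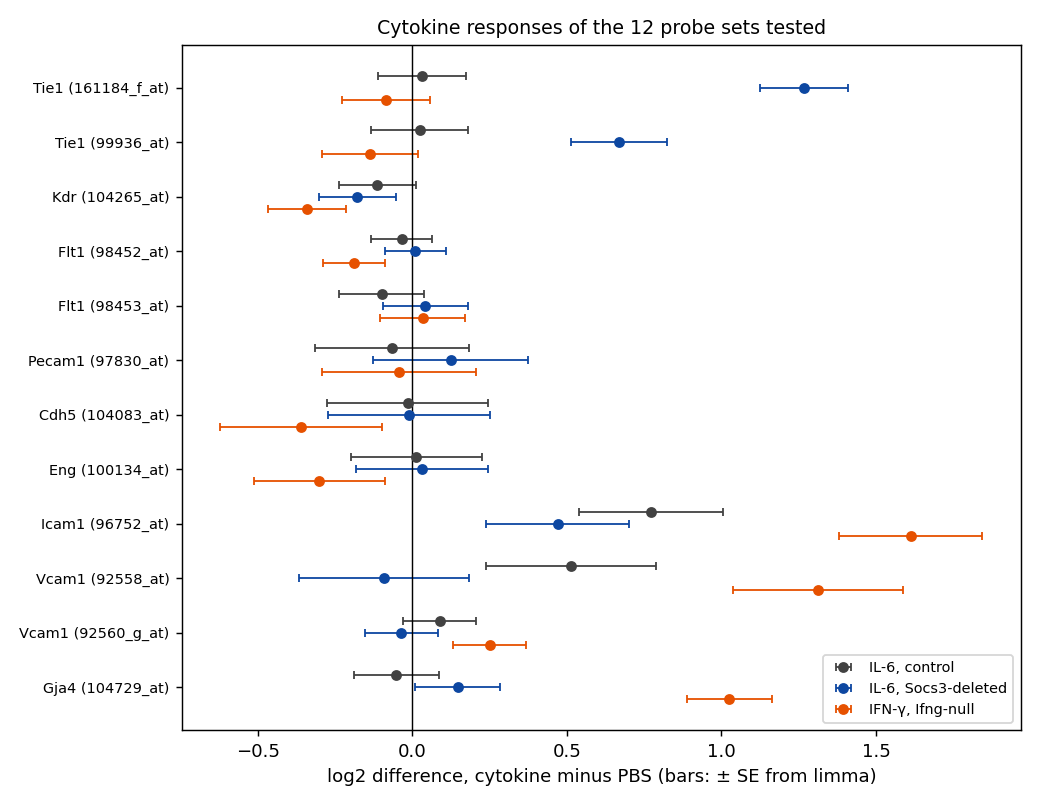
Log2 difference between cytokine and PBS arrays (limma estimate with SE) for the 12 probe sets that entered the fit, for IL-6 in control mice, IL-6 in Socs3-deleted mice and IFN-γ in Ifng-null mice. Tie1 stands apart for IL-6 in Socs3-deleted mice (1.27 and 0.67), and Icam1, Vcam1 on 92558_at and Gja4 for IFN-γ (1.61, 1.31 and 1.03).

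In Socs3-deleted mice given IL-6, 1 of the 12 probe sets was called (161184_f_at of Tie1), beside 1.17% of all probe sets, and for Socs3-deleted against control mice after IL-6 it was again 1 of 12, beside 0.954%. The IL-6 response averaged over both genotypes called 161184_f_at as well, beside 1.06%, with a log2 difference of 0.65 ± 0.10 (SE, limma adjusted p = 0.0219). This average combines 0.03 in control and 1.27 in Socs3-deleted mice, so it does not show a response common to both. Leaving out any single array of the control groups or of the Socs3-deleted PBS group ended that last call, and so did leaving out the 2 arrays high in pancreatic markers (limma adjusted p = 0.0519 to 0.0869 and 0.21). In control mice after IL-6, in Socs3-deleted against control mice given PBS and in Ifng-null against control mice given PBS, limma called 0 members and 0% of all probe sets, and 1, 2 and 0 of 12 members had an unadjusted p under 0.05, beside 2.57%, 4.17% and 3.08% of all probe sets. When the IL-6 responses of both genotypes were compared, 0 members were called beside 0.0415%, and 2 had an unadjusted p under 0.05, beside 3.94% of all probe sets. The IFN-γ response against the IL-6 response, compared after seeing the data, called 0 members beside 0.0207% with Socs3-deleted mice and 0 beside 0.0519% with control mice, and 5 and 2 members had an unadjusted p under 0.05, beside 3.11% and 2.38% of all probe sets. The comparisons share arrays, so their values are not independent of each other.

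The median log2 difference over the 12 probe sets was 0.00 for IL-6 in control mice, 0.04 for IL-6 in Socs3-deleted mice and -0.06 for IFN-γ, beside -0.01, 0.00 and -0.03 over all probe sets. After IFN-γ 4 of the 12 had groups that did not overlap and were higher, beside 9.8% of all probe sets, and 5 were lower, beside 17.4%. The 5 lower were both Tie1 probe sets, Kdr, 98452_at of Flt1 and Eng. None of these 5 was called, and their log2 differences lay between -0.34 and -0.09. In Socs3-deleted mice given IL-6, 3 were higher without overlap, both Tie1 probe sets and Gja4, beside 19.6%, and 0 were lower, beside 21.5%. After IL-6 in control mice 2 were higher, Icam1 and 92558_at of Vcam1, beside 13%, and 2 were lower, Kdr and 98452_at of Flt1, beside 14.6%. Between genotypes after PBS, 6 were higher in Socs3-deleted than in control mice, beside 15.9%, and Kdr was lower, beside 18.4%; after IL-6 these counts were 4, beside 17.9%, and 1, again Kdr, beside 23.2%. In Ifng-null mice 4 were higher than in control mice after PBS, beside 12.8%, and Kdr was lower, beside 15.4%. Kdr was thus highest in control mice after PBS, at 86.4 and 84.4, although its log2 differences between genotypes, from -0.21 to -0.14, were not called.

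The sequences before the start sites of Icam1, Gja4 and Tie1 are shown because these were the genes called. They come from the RefSeq promoter table of build GRCm38.p6, which has 7 of the 10 genes. Each sequence shown has 250 bases that end just before the annotated start, 5′ to 3′ on the gene's strand. Icam1 is at chr9:21015690-21015939 on the plus strand, Gja4 at chr4:127314040-127314289 on the minus strand and Tie1 at chr4:118489850-118490099 on the minus strand. Capitals mark the match to a searched motif.
Icam1: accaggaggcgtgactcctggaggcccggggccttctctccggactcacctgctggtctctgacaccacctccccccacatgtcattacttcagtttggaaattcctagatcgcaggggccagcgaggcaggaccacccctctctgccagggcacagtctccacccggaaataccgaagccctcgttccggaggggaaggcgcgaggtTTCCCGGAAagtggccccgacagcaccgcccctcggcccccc
Gja4: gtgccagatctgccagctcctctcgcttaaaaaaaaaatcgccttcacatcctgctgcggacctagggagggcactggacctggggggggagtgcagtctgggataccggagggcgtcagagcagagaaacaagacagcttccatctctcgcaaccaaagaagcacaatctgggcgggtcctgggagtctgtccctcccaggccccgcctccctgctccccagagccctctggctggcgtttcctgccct
Tie1: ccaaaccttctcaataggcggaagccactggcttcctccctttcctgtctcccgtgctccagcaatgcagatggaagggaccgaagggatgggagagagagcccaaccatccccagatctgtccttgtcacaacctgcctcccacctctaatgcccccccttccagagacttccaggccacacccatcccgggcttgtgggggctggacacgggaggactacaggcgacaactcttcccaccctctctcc
The 4 motifs searched on both strands were the STAT motif TTCNNNGAA, the interferon-stimulated response element (GAAA, 2 free bases and GAAA), the NF-kappaB consensus and the ETS core CCGGAAGT. The NF-kappaB consensus was taken as GGG, A or G, any base, A or T, 2 bases of C or T, and CC. Only full matches were counted. The Icam1 sequence holds tggaaattcc, which departs from the NF-kappaB consensus in its first base alone and was therefore not counted. Icam1 had 1 match to the STAT motif, TTCCCGGAA, at 42 to 34 bases before the start, and 7.02% of the 32851 promoters in the table have such a match in this window. STAT factors carry the signals of both IL-6 and IFN-γ receptors to DNA. Gja4 and Tie1 had 0 matches to any of the 4. Kdr and Flt1 each had 1 match to the NF-kappaB consensus, which 3.9% of the promoters hold, while 2.98% hold the interferon-stimulated response element and 2.88% the ETS core. The windows of Kdr and Flt1 lie inside the annotated spans of these genes, so they do not precede the outermost annotated start. A match describes these letters and no binding was measured.

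The genes whose pattern over the 12 arrays was most like that of Icam1, by the root mean square difference of centred log2 values, were Eif1a (0.21), Irf1 (0.26) and Nmi (0.29), against an SD of 0.66 for Icam1 itself. Irf1 encodes an interferon-induced transcription factor and its Ifng-null arrays read 200.1 and 237 after PBS and 536 and 801 after IFN-γ. For Tie1 on 161184_f_at the nearest were Cd14 (0.17), Pou6f1 (0.21) and Slc41a1 (0.23), against an SD of 0.64. Cd14, the lipopolysaccharide co-receptor gene of macrophages, read 775 and 842 in Socs3-deleted mice after IL-6 and 229 to 328 on the 10 other arrays. For IL-6 against PBS in Socs3-deleted mice, Cd14 was the only 1 of the 12 macrophage markers called, beside 1.17% of all probe sets. Of these markers 9 had positive and 3 negative differences, with a median of 0.13 on the log2 scale, beside 0.00 over all probe sets. For Vcam1 on 92558_at the nearest genes were Rhob (0.34), AW112010 (0.34) and a second probe set of Eif1a (0.35), against an SD of 0.62, so this pattern was matched less closely.

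Around the receptors, 24 genes of VEGF and angiopoietin ligands, co-receptors and signalling partners were listed, of which 15 entered the fit. After IL-6 in Socs3-deleted mice 2 were called higher and 0 lower, beside 1.17% of all probe sets called. By sign alone, 12 had positive and 3 negative differences. Nrp1, which encodes the VEGF co-receptor neuropilin-1, read 297 ± 16.5 after PBS and 909 ± 4.25 after IL-6, a rise of 3.06-fold (SD, n = 2, limma adjusted p = 0.0431), and its other probe set gave a log2 change of 1.64 (limma adjusted p = 0.0417). Hif1a, the hypoxia-inducible factor gene, read 447 ± 101 against 222 ± 0.566 without IL-6 (SD, n = 2, limma adjusted p = 0.0246), and on its other probe set the change was 0.74 (limma adjusted p = 0.101). Neither call held without the 2 arrays high in pancreatic markers, with changes of 1.56 and 0.99 (limma adjusted p = 0.173 and 0.221), and over the 12 fits that left out 1 array the call of Nrp1 held in 4 and that of Hif1a in 9. None of the 15 was called after IFN-γ or after IL-6 in control mice, beside 0.653% and 0% of all probe sets.

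In the TGF-beta and BMP arm that endoglin serves, 19 of 24 listed genes entered the fit. For IL-6 in Socs3-deleted mice 2 were called higher and 0 lower, beside 1.17% of all probe sets called, while 14 had positive and 5 negative differences. Id3, a BMP target gene, was at 1161 ± 151 after IL-6 against 438 ± 133, and Smad1, a BMP signal transducer, at 558 ± 13.3 against 274 ± 83.4 (SD, n = 2, limma adjusted p = 0.0485 and 0.0311). Both were also called in the IL-6 response averaged over the genotypes, beside 1.06% of all probe sets. The averaged differences were 1.11 and 0.78 on the log2 scale (limma adjusted p = 0.0331 and 0.0289). None of these calls held without the 2 arrays high in pancreatic markers, with changes of 1.75 for Id3 and 0.75 for Smad1 in Socs3-deleted mice (limma adjusted p = 0.132 and 0.143) and averaged ones of 1.22 and 0.56 (limma adjusted p = 0.167 and 0.166). Over the 12 fits that left out 1 array the calls in Socs3-deleted mice held in 2 for Id3 and 6 for Smad1, and the averaged ones in 4 and 5.

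Of 30 listed genes of leukocyte adhesion and endothelial junctions 23 entered the fit. Limma called 0 of them in each of the 8 comparisons, beside 0% to 1.17% of all probe sets. The largest differences were 0.77 for Gjb2, the connexin 26 gene of hepatocytes, after IL-6 in control mice, and -0.65 for the integrin gene Itgb1 between the IL-6 responses of the genotypes, where its other probe set gave -0.09. The first was 0.34 when the 2 arrays high in pancreatic markers were left out. Of 22 endothelial transcription factors 16 entered and 0 were called, beside the same shares of all probe sets. Hhex read 107 ± 80.2 in Socs3-deleted and 288 ± 238 in control mice after IL-6, and Nr2f2 142 ± 53.0 after PBS and 90.6 ± 18.8 after IFN-γ in Ifng-null mice (SD, n = 2).

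Regulators that act on adhesion genes, such as NF-kappaB, STAT and IRF factors and cytokine receptors, numbered 33, of which 27 entered the fit. After IFN-γ 1 was called, beside 0.653% of all probe sets. This was Irf8, an interferon-induced transcription factor gene, 3.67-fold higher, with 75.8 ± 6.72 after PBS and 278 ± 14.4 after IFN-γ (SD, n = 2, limma adjusted p = 0.000142). For IL-6 in Socs3-deleted mice 2 were called higher, beside 1.17% of all probe sets called, while 23 had positive and 4 negative differences. Bcl3, whose product binds NF-kappaB subunits, read 674 ± 102 after PBS and 1650 ± 340.3 after IL-6, and Jak2, a kinase of cytokine receptors, rose 1.69-fold to 79.6 ± 1.41 (SD, n = 2, limma adjusted p = 0.016 and 0.00608). Against control mice after IL-6, Cebpd, an inflammatory transcription factor gene, was 4.86-fold higher in Socs3-deleted mice (limma adjusted p = 0.0194). Bcl3 and Jak2 were called higher as well, and 0.954% of all probe sets were called there. After PBS the Cebpd means were already 305 in Socs3-deleted and 151 in control mice, which was not called. In the averaged IL-6 response 3 were called higher, beside 1.06% of all probe sets called. These were Bcl3, Jak2 and the TNF receptor gene Tnfrsf1a, whose other probe set gave 0.11. The Jak2 means in control mice were 50.25 after PBS and 51 after IL-6, so its average came from the Socs3-deleted mice. Without the 2 arrays high in pancreatic markers the calls of Irf8 and Cebpd held (limma adjusted p = 0.0021 and 0.0368). Those of Bcl3 and Jak2 did not, neither for IL-6 against PBS in Socs3-deleted mice (limma adjusted p = 0.173 and 0.0775), nor against control mice (limma adjusted p = 0.1 and 0.0509), nor averaged (0.186 and 0.21), and Tnfrsf1a was not called either (0.248). Over the 12 fits that left out 1 array, the call of Irf8 held in 12 and that of Cebpd in 10. For Bcl3 and Jak2 the calls held in 10 and 11 of these fits in Socs3-deleted mice, in 2 and 8 against control mice and in 9 and 5 averaged, and that of Tnfrsf1a in 3. The median log2 change of these 27 genes was 0.29 after IL-6 in Socs3-deleted mice and 0.30 after IFN-γ, beside 0.00 and -0.03 over all probe sets.

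**Figure D4:**
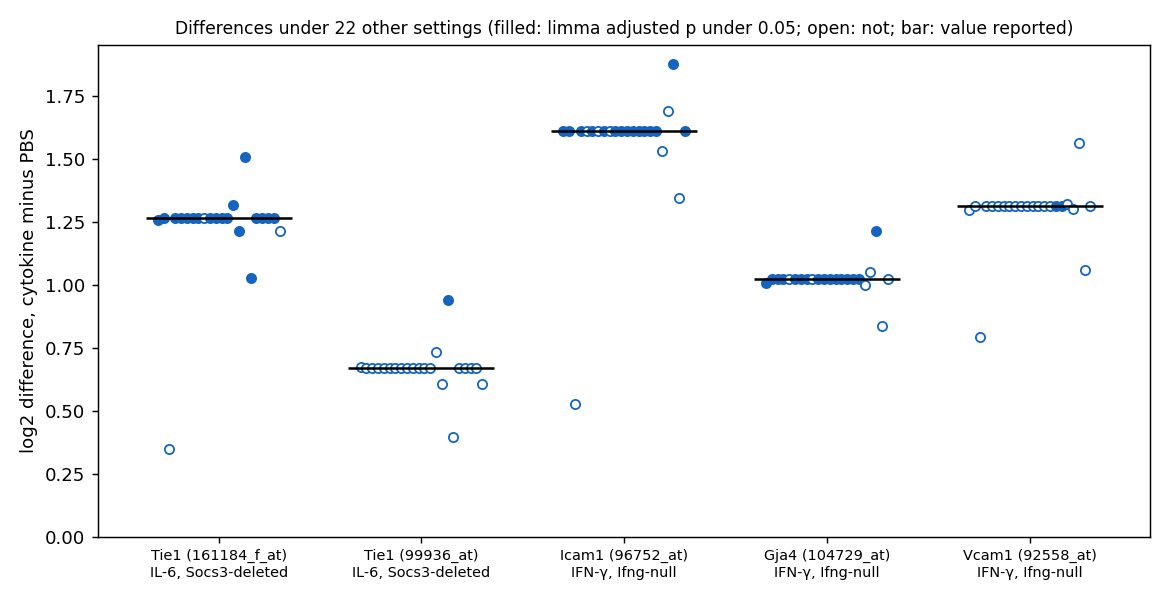
Log2 difference between cytokine and PBS arrays for Tie1 (2 probe sets, IL-6 in Socs3-deleted mice), Icam1, Gja4 and Vcam1 on 92558_at (IFN-γ in Ifng-null mice) under 22 other settings of the analysis; filled points have a limma adjusted p under 0.05, open points do not, and the bar is the value reported. All values are above 0, and the call of Tie1 on 161184_f_at held in 19 of the 22 settings, that of Gja4 in 16 and that of Icam1 in 15.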

How the data were processed

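Signal intensities of 12 Affymetrix arrays of mouse liver RNA were used as deposited, with 1 linear value for each probe set of an array. The sources used here do not state how the authors computed and scaled these deposited intensity values. Groups and replicate numbers came from the sample titles. The 66 control probe sets were left out, values under the 25th percentile were set to it (33.0), and log2 was taken, so changes near the floor are understated. limma 3.58.1 in R 4.3.3 fitted 6 group means to all 12 arrays (6 residual and 3.38 prior degrees of freedom), with two-sided tests, p-values adjusted by Benjamini-Hochberg for 9641 probe sets and a threshold of 0.05; an exact test of 2 against 2 arrays cannot go below p = 0.333. Symbols came from the platform table, and all 10 matched RefSeq. For listed genes, the probe set with the highest mean stood for a gene. Named are up to 3 called genes per list and comparison, or the 2 largest changes of a list with none. Likeness names 3 genes for each of the 3 member probe sets of widest range. The members and lists were chosen with earlier results of these data known. The code was tested on simulated data. The tests of IFN-γ against IL-6 responses and the alternatives for listed genes were added after seeing the data.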

Additional observations from a re-analysis of the deposited data

Results flagged for a closer look

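Irf8 is listed here because the test of the difference between 2 cytokine responses was past the threshold. Its log2 change after IFN-γ in Ifng-null mice exceeded the change after IL-6 by 1.64 in Socs3-deleted mice and by 1.74 in control mice (limma adjusted p = 0.0148 and 0.00613). Groups of 2 arrays were too small for a test of single outlying arrays.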

How the results depend on the processing

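The differences of the 12 probe sets in the fit were followed under 22 alternatives in each comparison, and no called difference changed sign. Counts of members called moved as follows. With the floor at the 50th percentile, which lies above most values of Icam1 and of 161184_f_at of Tie1, they were 0 for IL-6 in Socs3-deleted mice, 0 for the averaged IL-6 response, 1 for IFN-γ and 0 for Socs3-deleted against control mice after IL-6. Calls over all probe sets were 98, 92, 57 and 72 there, in the same order, beside 113, 102, 63 and 92 in the reported fit. With only the arrays compared, which leaves fewer samples, all 4 member counts were 0. Calls over all probe sets were then 1, 33, 10 and 0. Without a filter the averaged IL-6 response and IFN-γ had 0 members each, beside 21 and 8 calls over all probe sets. Array weights gave 1 member for IFN-γ and 2 for Socs3-deleted against control mice after IL-6, beside 28 and 223 calls over all probe sets. Without the 2 arrays highest in the pancreatic enzyme gene Prss2 (control PBS replicate 2 and Socs3-deleted PBS replicate 2) the counts were 0 for IL-6 in Socs3-deleted mice, 0 for the averaged response and 1 for IFN-γ; there Tie1 on 161184_f_at had a log2 difference of 1.22 (limma adjusted p = 0.0977). Leaving out single arrays gave 1 to 2 members for IL-6 in Socs3-deleted mice, 0 to 2 for the averaged response, 0 to 1 for the comparison of the IL-6 responses, 0 to 3 for IFN-γ, 1 to 2 for Socs3-deleted against control mice after IL-6 and 0 to 1 for IFN-γ minus the IL-6 response of Socs3-deleted mice. Where leaving out leaves 1 array in a group, its spread is taken from the other groups. Without the 2 arrays highest in Prss2, calls over all probe sets also became fewer in every comparison that had any. Calls over all probe sets ranged from 1 to 160 for IL-6 in Socs3-deleted mice (113 reported), from 8 to 72 for IFN-γ (63 reported) and from 0 to 223 for Socs3-deleted against control mice after IL-6 (92 reported). Except where stated, the cause was not tested.

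With the replicate number as a block the averaged IL-6 response called 2 members, Icam1 joining Tie1 (limma adjusted p = 0.0471), and the other counts stayed as they were. The numbers are not known to pair the arrays: deviations of equally numbered arrays correlated between -0.25 and 0.66 over pairs of groups. The 0.66 was that of the 2 Ifng-null groups, whose comparison gave the calls of Icam1 and Gja4, and the next highest was 0.31. With the block both were still called (limma adjusted p = 0.00433 and 0.0213). The block is 1 term shared by all groups, so it cannot take up a pairing of the Ifng-null arrays alone. A crossed replicate block, chosen after seeing the data, called 0 members for Ifng-null against control mice after PBS.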
